A study of Homo sapiens with 4 samples.

Results

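Respiratory complex I was followed across its nuclear-encoded subunits and the proteins that assemble it. Members were taken by gene symbol alone: every gene whose symbol begins with NDUF, plus FOXRED1, ECSIT, TIMMDC1 and NUBPL. This gave 51 of the 19192 genes counted. Of these, 37 encode subunits, 11 encode assembly factors, and 3 (NDUFA4, NDUFA4L2 and the NDUFC2-KCTD14 read-through gene) were kept apart from both. The libraries came from 2 derivatives of SW480, an established cell line grown from a human colon cancer. The knockout-labelled line is labelled as LIN28B overexpression together with an IMP1 (IGF2BP1) knockout, written IMP1-/-. The OE-labelled line is labelled as LIN28B overexpression alone, so both labels share the overexpression. The counts of IGF2BP1 go against these labels, and those of LIN28B differ between the lines, as given next. How the overexpression was driven, and whether either line is a single clone, is not given in the sources used here. Each line gave 1 library of ribosome footprints and 1 library of randomly fragmented RNA, each from 3 pooled culture plates. With 1 library per line and assay no test of a difference is possible, and every 95% interval covers counting error only.

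Total counts were 3260262 and 6813372 in the knockout-labelled footprint and RNA libraries, and 2732760 and 5429224 in the OE-labelled ones. IGF2BP1 did not follow its label: it had 1974 RNA counts in the knockout-labelled line and 840 in the OE-labelled line, a log2 ratio of 0.79 (0.67 to 0.91), and 821 knockout-labelled and 332 OE-labelled footprint counts (1.03, 0.84 to 1.22). LIN28B was lower in the knockout-labelled line, with 303 knockout-labelled and 1205 OE-labelled RNA counts, an mRNA log2 ratio of -2.43 and a footprint log2 ratio of -2.31. Directions are accordingly given by label, and none is a measured effect of losing IMP1. All 7 epithelial markers had counts in every library, but their summed level, in counts scaled to equal library size (CPM), was 4955 CPM in the knockout-labelled RNA library and 10441 CPM in the OE-labelled one, and 14957 CPM and 29750 CPM in footprints. The keratins KRT8 and KRT18 carry most of these sums. CDH1, E-cadherin, went the other way, with 614 knockout-labelled and 243 OE-labelled RNA counts (log2 ratio 0.89) and 436 knockout-labelled and 167 OE-labelled footprint counts (1.11). Of 10 markers of blood, stromal and endothelial cells and muscle, 5 were at 0 in the knockout-labelled RNA library and 5 in the OE-labelled one, with PTPRC and DCN among those at 0 in all 4 libraries. In footprints 5 were at 0 in the knockout-labelled library and 7 in the OE-labelled one. COL1A1, a collagen gene of stromal cells, had 55 RNA counts in the knockout-labelled line and 2 in the OE-labelled line. The summed level of the 10 markers was 35.1 CPM in the knockout-labelled RNA library and 22.1 CPM in the OE-labelled one, and 54.2 CPM and 31.7 CPM in footprints. The part of these differences in the results below was not tested.

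Complex I, NADH:ubiquinone oxidoreductase, takes electrons from NADH, passes them along iron-sulfur clusters to ubiquinone, and pumps protons across the inner mitochondrial membrane. Its peripheral arm holds the N module, where NADH is oxidised, and the Q module, where ubiquinone is reduced. Its membrane arm is built around subunits encoded in mitochondrial DNA. The NDUFB, NDUFC and some of the NDUFA accessory subunits surround them, while other NDUFA subunits belong to the peripheral arm. Assembly factors join the intermediates of the complex, modify or load its subunits, and are absent from the finished enzyme.

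Subunits and assembly factors stood alike in mRNA but apart in footprints. The median mRNA log2 ratio, knockout-labelled over OE-labelled, was 0.02 for the 37 subunits and 0.06 for the 11 assembly factors, against 0.01 over all 9855 genes measured. A gene counted as measured where its libraries of that assay averaged 50 counts or more. In footprints the median was -0.11 for the 37 subunits and 0.49 for the 8 measured assembly factors, against 0.02 over 7323 genes. The difference of medians, subunits minus assembly factors, was -0.04 in mRNA and -0.60 in footprints, on the log2 scale. These differences do not depend on how libraries are scaled, because a scaling moves every gene of an assay equally. The footprint difference did depend on which assembly factors were taken: it was -0.18 once 13 assembly factors outside the naming rule were added and -0.42 without FOXRED1.

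Summed over genes, the assembly factors had 1382 footprint counts in the knockout-labelled line and 915 in the OE-labelled line, a log2 ratio of 0.32 (0.20 to 0.44). Their summed RNA counts were 1788 (knockout-labelled) and 1334 (OE-labelled) (-0.02, -0.13 to 0.08). The subunits had 16202 footprint counts in the knockout-labelled line and 13689 in the OE-labelled line (-0.03, -0.07 to -0.00022), and 17264 knockout-labelled and 12903 OE-labelled RNA counts (-0.02, -0.06 to 0.01). A gene held at the same share has 1.36 times as many RNA counts, and 1.21 times as many footprint counts, in the knockout-labelled library, which is why unequal counts can give a ratio near 0. Without FOXRED1 the summed assembly factor ratio was 0.25 in footprints and 0.04 in mRNA.

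Counted at a threshold of 1.5-fold, 1 of 37 subunits was higher in mRNA and 2 were lower, where 10.5% of all measured genes were higher and 10.5% lower. No assembly factor of 11 was higher in mRNA and 1 was lower. In footprints 2 of 37 subunits were higher and 3 lower, where 15.0% of all measured genes were higher and 14.0% lower. Of the 8 measured assembly factors, 4 were higher in footprints and 1 lower. FOXRED1, among the 4, passed the count minimum only through the library where it was high, with 42 OE-labelled footprint counts. The 4 became 2 once the median of the 40 nearest genes on the chromosome was subtracted from each gene, and 2 without the genes that share exonic bases with another listed gene. The latter setting dropped TIMMDC1 and ECSIT. TIMMDC1 shares 798 exonic bases with CD80, which had 0 counts in all 4 libraries. ECSIT shares 8 with ZNF653, which had 5 knockout-labelled and 9 OE-labelled footprint counts. The assembly factors are less abundant than the subunits, so the same share was taken among the 2688 genes within their range of mean footprint counts (78.0 to 178.5): 18.2% were higher and 16.2% lower. Scaling by total counts changed the split over all genes in mRNA from 1036 higher and 1038 lower to 1493 and 746. It gave 2 subunits higher and 0 lower in mRNA, and 1 assembly factor higher.

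**Figure D1:**
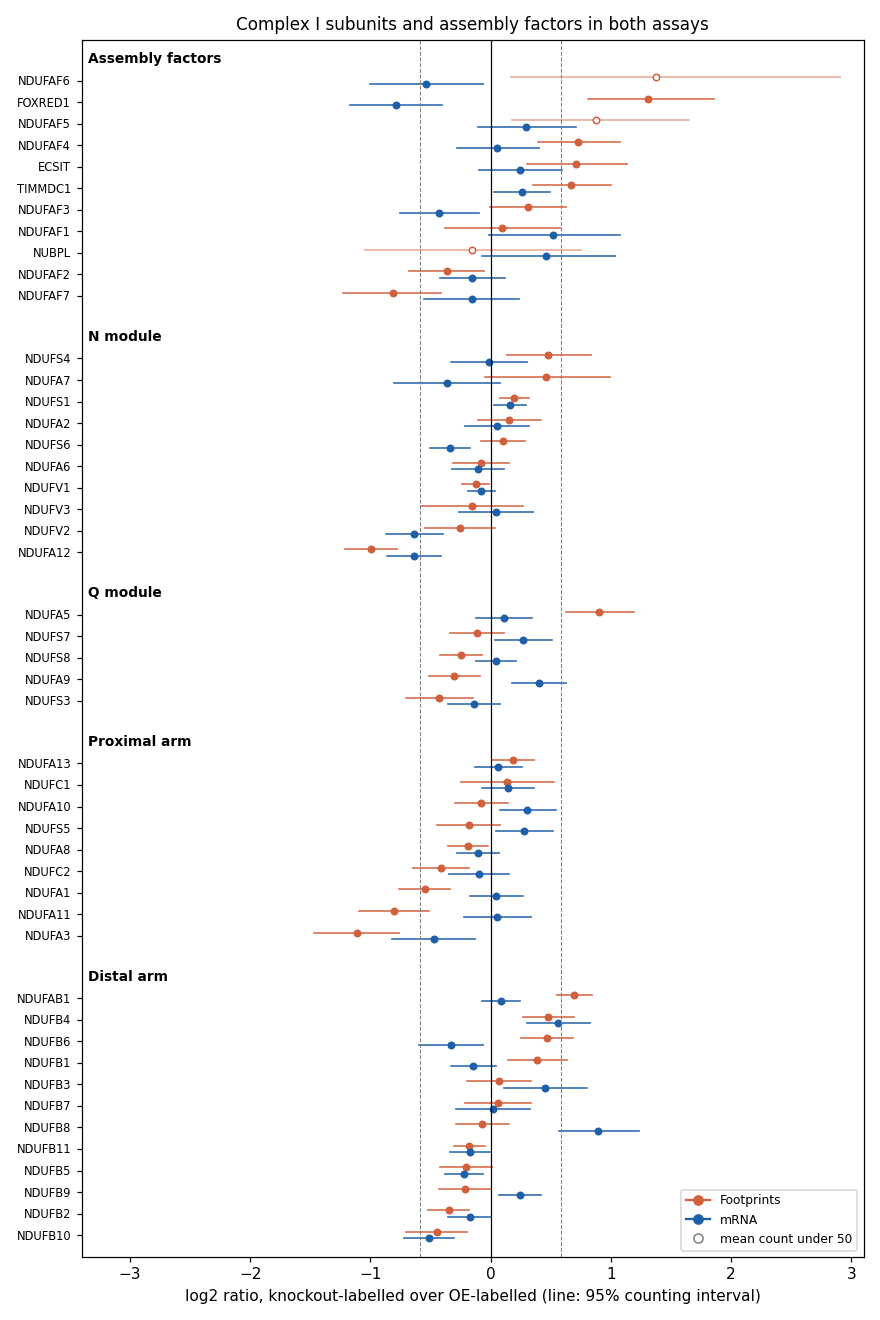
Log2 ratio of footprints and of mRNA, knockout-labelled over OE-labelled, for the subunits reported by name and the 11 assembly factors, ordered by footprint ratio within each module. Points are ratios and lines are 95% counting intervals, open points have a mean count under 50, and dashed lines mark 1.5-fold. In footprints 4 filled assembly factor points lie right of the upper dashed line, from 0.67 for TIMMDC1 to 1.31 for FOXRED1.

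FOXRED1, a flavoprotein-like oxidoreductase needed for complex I assembly (ENST00000263578; chr11:126269133-126278124, plus strand, GRCh38), stood furthest from 0 in footprints among the measured members. It had 127 footprint counts in the knockout-labelled line and 42 in the OE-labelled line, while its RNA counts were 105 (knockout-labelled) and 133 (OE-labelled). The footprint log2 ratio was 1.31 (0.81 to 1.86) and the mRNA log2 ratio -0.78 (-1.17 to -0.41). The gene was thus 2.48-fold higher in footprints and 1.72-fold lower in mRNA. Translational efficiency, taken as the ratio of footprints divided by that of mRNA, had a log2 value of 2.09 (1.47 to 2.71). In CPM per kilobase of coding length, FOXRED1 footprints were 26.5 in the knockout-labelled line and 10.6 in the OE-labelled line, and its RNA 10.1 and 17.5.

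The factors that act on the Q module did not share a direction. In this and the following paragraphs the parentheses after counts hold the log2 ratio, with its 95% interval where given. NDUFAF4, which works with NDUFAF3 on early Q module intermediates, had 217 footprint counts in the knockout-labelled line and 108 in the OE-labelled line, a log2 ratio of 0.73 (0.39 to 1.08). Its RNA counts of 177 (knockout-labelled) and 125 (OE-labelled) gave 0.06 (-0.28 to 0.40). NDUFAF4 has 4 named pseudogenes in GENCODE release 29, so its reads cannot be assigned with certainty. Named pseudogenes were found for 19 of the 51 members. NDUFAF3 had 207 footprint counts in the knockout-labelled line and 138 in the OE-labelled line, at 0.31 (-0.01 to 0.63), and 155 knockout-labelled and 153 OE-labelled RNA counts, at -0.43 (-0.76 to -0.09). Its translational efficiency ratio was 1.66-fold higher, from an mRNA ratio below 0 and a footprint ratio above 0. NDUFAF7, a protein arginine methyltransferase, went the other way, with 88 footprint counts in the knockout-labelled line and 128 in the OE-labelled line. Its log2 ratio was -0.81 (-1.23 to -0.41) in footprints and -0.16 (-0.55 to 0.24) in mRNA. NDUFAF7 shares 48 exonic bases with CEBPZ on the opposite strand, and CEBPZ had a footprint log2 ratio of -0.14.

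Few footprints were counted for the remaining Q module factors. NDUFAF5, which hydroxylates an arginine of NDUFS7, had 54 footprint counts in the knockout-labelled line and 24 in the OE-labelled line (0.88, 0.18 to 1.65), with 137 knockout-labelled and 82 OE-labelled RNA counts (0.29, -0.11 to 0.71). NDUFAF6, a factor related to phytoene synthases, had 23 footprint counts in the knockout-labelled line and 7 in the OE-labelled line (1.37, 0.17 to 2.90), with 76 knockout-labelled and 81 OE-labelled RNA counts (-0.54, -1.01 to -0.07). NUBPL, which delivers iron-sulfur clusters to the complex, had 24 footprint counts in the knockout-labelled line and 22 in the OE-labelled line (-0.15, -1.05 to 0.75), with 83 knockout-labelled and 44 OE-labelled RNA counts (0.46, -0.07 to 1.03). These 3 genes fell under the footprint count minimum, and only the footprint interval of NUBPL held 0 among them. With a minimum of 10 counts all 11 assembly factors were measured in footprints and their median was 0.67. With the same minimum and the factors outside the naming rule added, the median was 0.067, with 9 higher and 5 lower. The share of all genes past 1.5-fold was not taken at that minimum, so these numbers have no background beside them.

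Among factors of the membrane arm, ECSIT and TIMMDC1 were higher in footprints. ECSIT, a member of the mitochondrial complex I assembly (MCIA) complex that is also known as a Toll signalling adaptor, had 149 footprint counts in the knockout-labelled line and 75 in the OE-labelled line, a log2 ratio of 0.71 (0.30 to 1.13). Its RNA counts were 184 (knockout-labelled) and 114 (OE-labelled) (0.24, -0.10 to 0.60). With the median of its 40 nearest genes subtracted, its footprint log2 ratio was 0.52, under 1.5-fold. TIMMDC1, a membrane protein that binds intermediates containing ND1, had 235 footprint counts in the knockout-labelled line and 122 in the OE-labelled line (0.67, 0.35 to 1.00) and 406 knockout-labelled and 249 OE-labelled RNA counts (0.26, 0.03 to 0.49). Both lay above 0 in each assay, and in neither did the mRNA ratio reach 1.5-fold. TIMMDC1 lies on chromosome 3, where its 40 nearest measured genes had medians of 0.38 in mRNA and 0.37 in footprints. After these medians were subtracted, its ratios were -0.12 and 0.30. NDUFAF1, another MCIA member, had 88 footprint counts in the knockout-labelled line and 68 in the OE-labelled line (0.09, -0.38 to 0.57) and 88 knockout-labelled and 45 OE-labelled RNA counts (0.52, -0.01 to 1.07), so ECSIT and NDUFAF1 differed in footprint ratio although their intervals overlapped.

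NDUFAF2 is a paralogue of the subunit NDUFA12 and occupies its place on late intermediates before the N module is complete. It had 170 footprint counts in the knockout-labelled line and 181 in the OE-labelled line (-0.37, -0.68 to -0.06) and 255 knockout-labelled and 208 OE-labelled RNA counts (-0.15, -0.42 to 0.12). NDUFA12 had 296 footprint counts in the knockout-labelled line and 487 in the OE-labelled line (-0.99, -1.21 to -0.78) and 313 knockout-labelled and 358 OE-labelled RNA counts (-0.64, -0.86 to -0.42). Both lay below 0 in each assay, and NDUFA12 was the further from 0, 1.99-fold lower in footprints and 1.56-fold lower in mRNA.

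**Figure D2:**
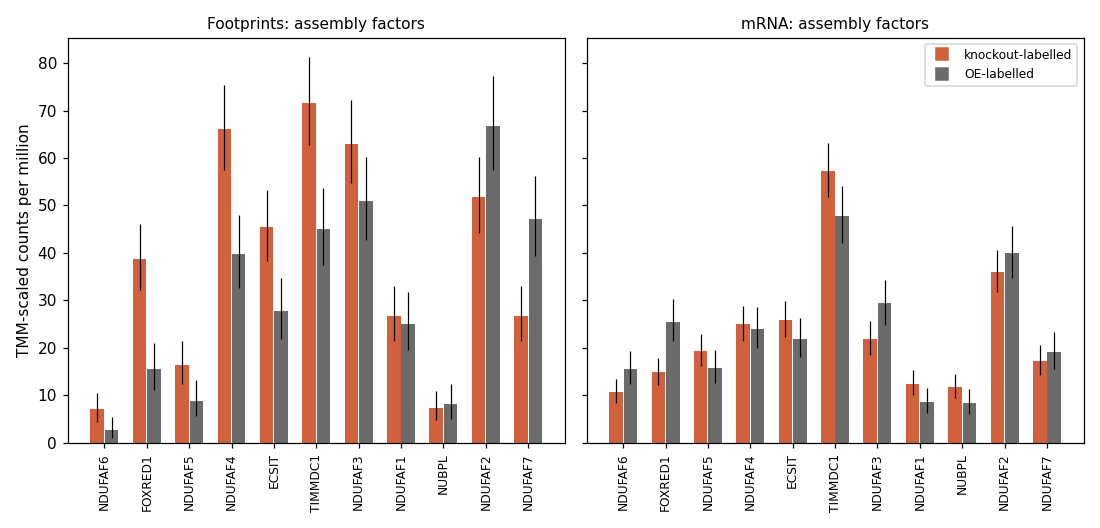
TMM-scaled CPM of each assembly factor in footprints (left panel) and mRNA (right panel), with the knockout-labelled library left of the OE-labelled one and exact 95% Poisson intervals as error bars. FOXRED1 stands at 38.7 and 15.5 in footprints but at 14.8 and 25.5 in mRNA.

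In the core of the N module, NDUFV1 and NDUFS1 stayed near 0 and NDUFV2 was lower in mRNA. NDUFV1, which binds FMN and NADH, had 1405 footprint counts in the knockout-labelled line and 1266 in the OE-labelled line (-0.13, -0.24 to -0.02) and 1494 knockout-labelled and 1158 OE-labelled RNA counts (-0.08, -0.19 to 0.03). NDUFS1, the largest subunit and a carrier of iron-sulfur clusters, had 1385 footprint counts in the knockout-labelled line and 997 in the OE-labelled line (0.20, 0.08 to 0.32) and 1178 knockout-labelled and 775 OE-labelled RNA counts (0.16, 0.03 to 0.29). Neither gene reached 1.2-fold in any ratio. NDUFV2, the third core subunit of the module, was 1.55-fold lower in mRNA, with 284 RNA counts in the knockout-labelled line and 324 in the OE-labelled line (-0.63, -0.87 to -0.40). Its footprint counts of 205 (knockout-labelled) and 202 (OE-labelled) gave -0.26 (-0.54 to 0.03). The 40 genes nearest to it on chromosome 18 had a median mRNA log2 ratio of -0.12.

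The accessory subunits of the N module spanned -0.99 to 0.48 in footprints, with NDUFA12 lowest and NDUFS4 highest. NDUFS4, one of the last subunits to be added, had 186 footprint counts in the knockout-labelled line and 110 in the OE-labelled line (0.48, 0.13 to 0.84) at an mRNA log2 ratio of -0.02. NDUFA7 had 87 footprint counts in the knockout-labelled line and 52 in the OE-labelled line (0.46, -0.05 to 0.99) and 92 knockout-labelled and 87 OE-labelled RNA counts (-0.36, -0.80 to 0.08). Its efficiency ratio was 1.77-fold higher, the highest of the nuclear-encoded subunits. The reads of NDUFA7 are uncertain, because CTD-2550O8.5, a listed gene on the same strand, shares 456 exonic bases with it. NDUFS6, a zinc-binding subunit, had 574 knockout-labelled and 441 OE-labelled footprint counts (0.10) and 617 knockout-labelled and 573 OE-labelled RNA counts (-0.34). NDUFA6, which anchors a copy of the acyl carrier protein, had 333 knockout-labelled and 291 OE-labelled footprint counts (-0.08) and 407 knockout-labelled and 322 OE-labelled RNA counts (-0.11). NDUFV3 and NDUFA2 lay within 1.2-fold of 0 in every ratio.

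In the Q module, the core subunits NDUFS3, NDUFS7 and NDUFS8, which lie along the path of electrons to the ubiquinone site, stayed within 1.5-fold. NDUFS8 had 559 footprint counts in the knockout-labelled line and 548 in the OE-labelled line (-0.25, -0.42 to -0.08) and 723 knockout-labelled and 516 OE-labelled RNA counts (0.04). NDUFS3 was the lowest of these in footprints at -0.43, and NDUFS7 the highest in mRNA at 0.27.

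The accessory subunits of the Q module went in opposite directions. NDUFA5 had 336 footprint counts in the knockout-labelled line and 148 in the OE-labelled line, 1.87-fold higher (0.90, 0.62 to 1.20), the highest footprint ratio of any subunit. Its RNA counts of 370 (knockout-labelled) and 252 (OE-labelled) gave 0.11 (-0.13 to 0.35). GENCODE names 12 NDUFA5 pseudogenes, and how multiply aligned reads were counted is not given in the sources used here. NDUFA9, a subunit with a dehydrogenase fold at the junction of the arms, had 372 footprint counts in the knockout-labelled line and 379 in the OE-labelled line (-0.30, -0.51 to -0.09) and 467 knockout-labelled and 260 OE-labelled RNA counts (0.40, 0.18 to 0.62). Its efficiency ratio was 1.63-fold lower. RP11-500M8.7, a listed gene of the same strand with 606 exonic bases in common, stood at -0.33 in footprints and 0.09 in mRNA. RP11-234B24.6, also of that strand, shares 240 exonic bases with NDUFA9 and lay under the count minimum in both assays. It had 53 knockout-labelled and 18 OE-labelled RNA counts (1.09), and 30 knockout-labelled and 16 OE-labelled footprint counts (0.61).

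In the proximal membrane arm, 8 of 9 accessory subunits had an efficiency ratio below 0 on the log2 scale, where 50.4% of 7260 genes did, and 1 of the 8 (NDUFC1) was next to 0. The median was -0.38 against -0.0048 over those genes. NDUFA11, NDUFA3 and NDUFA1 were at least 1.5-fold lower in efficiency, as were 12.9% of all genes. NDUFA11 had 167 footprint counts in the knockout-labelled line and 241 in the OE-labelled line (-0.80, -1.10 to -0.51) with 260 knockout-labelled and 184 OE-labelled RNA counts (0.05, -0.22 to 0.33). NDUFA1, a small membrane subunit encoded on the X chromosome, had 340 footprint counts in the knockout-labelled line and 411 in the OE-labelled line (-0.55, -0.76 to -0.34) with 421 knockout-labelled and 299 OE-labelled RNA counts (0.05, -0.17 to 0.27). NDUFA3 was lowest of all members in footprints, 2.15-fold lower, with 106 footprint counts in the knockout-labelled line and 189 in the OE-labelled line (-1.11, -1.47 to -0.76). Its RNA counts of 140 (knockout-labelled) and 143 (OE-labelled) gave -0.48 (-0.82 to -0.13). NDUFA3 has 5 named pseudogenes, so its reads cannot be assigned with certainty. Each of these 3 genes shares exonic bases with another listed gene, and without the members that do so no subunit was at least 1.5-fold lower in efficiency.

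The other proximal subunits stood nearer to 0. NDUFA8 had 611 knockout-labelled and 576 OE-labelled footprint counts (-0.19) and 596 knockout-labelled and 471 OE-labelled RNA counts (-0.11). NDUFA13, also known as GRIM-19, had 643 knockout-labelled and 468 OE-labelled footprint counts (0.18) and 530 knockout-labelled and 373 OE-labelled RNA counts (0.06). It was the only proximal subunit with an efficiency log2 ratio above 0. NDUFA13 shares 327 exonic bases with CTC-260F20.3, a listed gene on the same strand with an efficiency log2 ratio of -0.02, so its reads are uncertain too. NDUFC1 had an efficiency log2 ratio of -0.0041 and stood at 0.14 in footprints and 0.14 in mRNA. NDUFC2, NDUFA10 and NDUFS5 lay between -0.41 and -0.08 in footprints. NDUFC2 shares 431 exonic bases with NDUFC2-KCTD14, whose ratios were -0.33 in footprints and -0.09 in mRNA, and these genes are not separate measurements.

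In the distal membrane arm, NDUFAB1 was 1.62-fold higher in footprints. NDUFAB1 is the mitochondrial acyl carrier protein, which also serves fatty acid synthesis and iron-sulfur cluster assembly outside the complex. It had 1184 footprint counts in the knockout-labelled line and 604 in the OE-labelled line (0.69, 0.55 to 0.84), while its RNA counts of 790 (knockout-labelled) and 547 (OE-labelled) gave 0.09 (-0.07 to 0.25). NDUFB6 had 481 footprint counts in the knockout-labelled line and 287 in the OE-labelled line (0.47, 0.25 to 0.68) and 249 knockout-labelled and 230 OE-labelled RNA counts (-0.33, -0.59 to -0.07), an efficiency ratio 1.74-fold higher. NDUFB5, with 374 knockout-labelled and 356 OE-labelled footprint counts and 736 knockout-labelled and 630 OE-labelled RNA counts, stood at -0.21 and -0.22.

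NDUFB8, a distal subunit that is often probed as a marker of assembled complex I, had the highest mRNA ratio of all members. It had 269 RNA counts in the knockout-labelled line and 106 in the OE-labelled line, 1.86-fold higher (0.89, 0.57 to 1.24). Its footprint counts of 368 (knockout-labelled) and 319 (OE-labelled) gave -0.07 (-0.29 to 0.15), and its efficiency ratio was the lowest of all subunits at -0.97 (-1.35 to -0.58). RP11-411B6.6, a listed gene on the same strand that shares 481 exonic bases with NDUFB8, had 157 knockout-labelled and 62 OE-labelled RNA counts (0.89) and 243 knockout-labelled and 250 OE-labelled footprint counts (-0.32). The counts of these genes cannot be separated. NDUFB4, which has 12 named pseudogenes, had 485 footprint counts in the knockout-labelled line and 287 in the OE-labelled line (0.48, 0.27 to 0.70) and 370 knockout-labelled and 184 OE-labelled RNA counts (0.56, 0.30 to 0.83). It lies near TIMMDC1 on chromosome 3, and the median of its 40 nearest genes was 0.28 in mRNA and 0.37 in footprints. The remaining distal subunits lay between -0.52 (NDUFB10) and 0.45 (NDUFB3) in mRNA and between -0.45 (NDUFB10) and 0.38 (NDUFB1) in footprints.

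**Figure D3:**
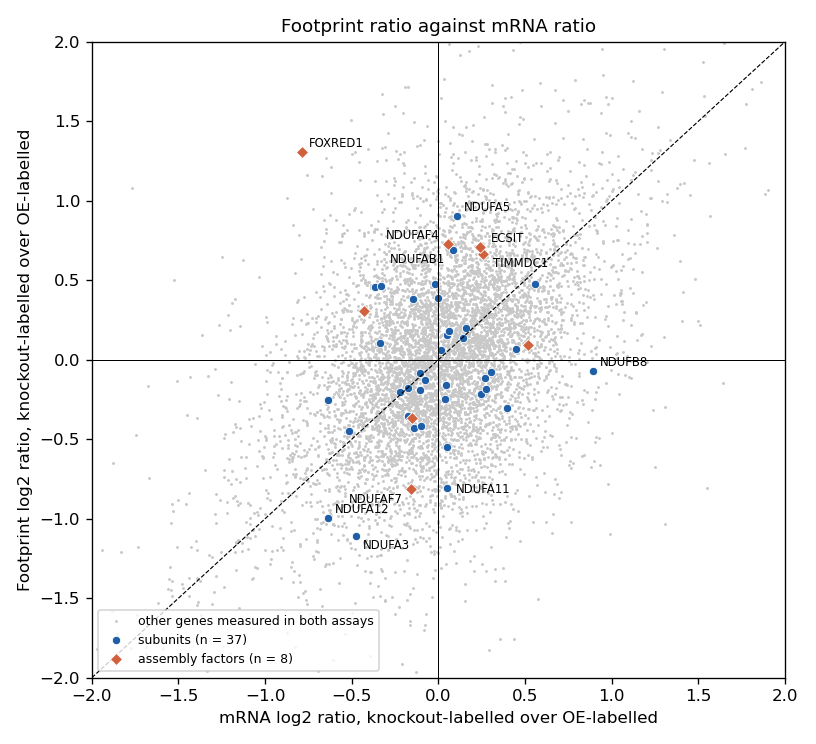
Footprint log2 ratio against mRNA log2 ratio, knockout-labelled over OE-labelled, for the 37 subunits, the 8 measured assembly factors and all other genes measured in both assays (grey, axes limited to 2 in each direction). The dashed line marks equal ratios. FOXRED1 lies at -0.78 in mRNA and 1.31 in footprints, and NDUFB8 at 0.89 and -0.07.

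In translational efficiency, 4 of 37 subunits were at least 1.5-fold higher (NDUFA7, NDUFA5, NDUFB6 and NDUFAB1) and 5 at least 1.5-fold lower (NDUFB8, NDUFA11, NDUFA9, NDUFA3 and NDUFA1). Over all 7260 genes, 13.4% were higher and 12.9% lower, so the subunits' counts lie near the background. Of the 8 measured assembly factors, 3 were higher (FOXRED1, NDUFAF3 and NDUFAF4) and 1 lower (NDUFAF7). Each of these 13 genes had an interval that left out 0. The efficiency ratio contains the mRNA ratio as its divisor, so counting error in mRNA moves it the opposite way. By total counts, the split over all genes was 760 higher and 1200 lower, against 972 and 939 with TMM factors. The 7 core subunits held none past 1.5-fold in efficiency. The 30 accessory ones held 4 higher (13.3%) and 5 lower (16.7%), near the shares of all genes. No difference between core and accessory subunits is read from these counts. Across the 37 subunits, mRNA and footprint log2 ratios had a Pearson r of 0.30, against 0.51 across 7260 genes. Genes of a library share its depth and are not independent replicates.

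Within each line, most nuclear-encoded complex I mRNAs carried more footprints per RNA than the median gene. The median log2 of footprint CPM over RNA CPM was 0.99 for subunits in the knockout-labelled line and 1.09 in the OE-labelled line, against 0.23 and 0.21 over 7260 genes. In each line 32 of 37 subunits lay above the median of all genes. The measured assembly factors had medians of 0.96 in the knockout-labelled line and 0.74 in the OE-labelled line, with 8 and 6 of 8 above the median of all genes. FOXRED1 differed most between the lines, at 1.38 in the knockout-labelled line and -0.71 in the OE-labelled line, where it was the lowest measured factor. NDUFC1 was the lowest nuclear-encoded subunit in both lines, at -0.61 and -0.61. The highest was NDUFB6 at 2.06 in the knockout-labelled line and NDUFB8 at 2.53 in the OE-labelled line. Genes of complexes II to V had medians of 0.68 and 0.63, and mitochondrial ribosomal proteins 0.80 and 0.70. The 2 measured complex I subunits encoded in mitochondrial DNA, MT-ND4 and MT-ND5, lay far below all these medians. Their median was -3.34 in the knockout-labelled line and -4.31 in the OE-labelled line. Which stretch of a transcript was counted is not given in the sources used here, so levels are compared with this unknown.

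**Figure D4:**
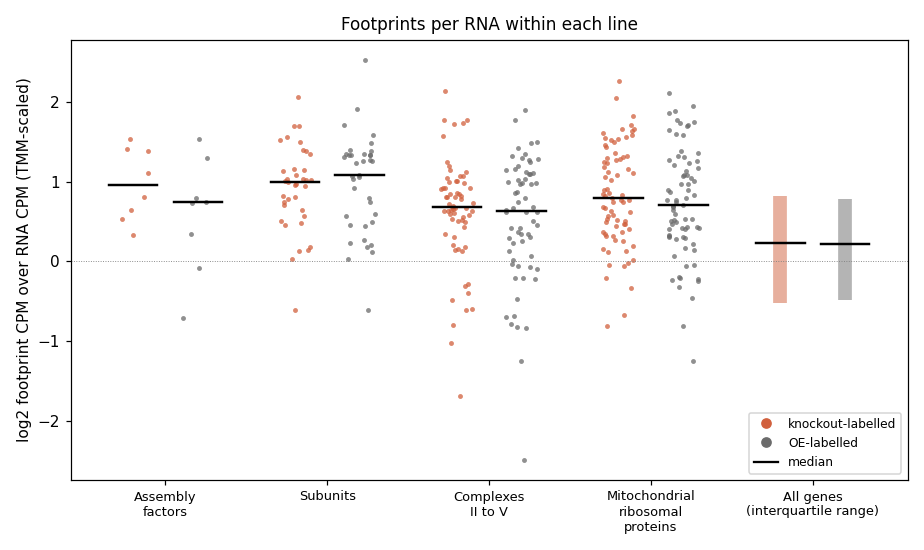
Log2 of footprint CPM over RNA CPM within each line, with the knockout-labelled line left of the OE-labelled one. Points are genes, black bars are medians, and shaded blocks span the interquartile range over 7260 genes. Subunit medians are 0.99 and 1.09 and assembly factor medians 0.96 and 0.74, above the medians of all genes.

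Subunits were far more abundant than assembly factors in both assays. In CPM per kilobase of coding length, the median footprint level was 206 for subunits and 27.3 for assembly factors in the knockout-labelled line, and 253 and 25.6 in the OE-labelled line. In RNA the medians were 113 and 18.7 in the knockout-labelled line, and 130 and 16.9 in the OE-labelled line. The listed transcript of NDUFA6 was not found in GENCODE release 29, so NDUFA6 has no level per length. Among subunits in footprints, NDUFAB1 was highest in the knockout-labelled line (770) and NDUFB11 in the OE-labelled line (743), while NDUFA7 was lowest in both (78.1 and 56.6). The highest subunit thus exceeded the lowest by 9.86 times in the knockout-labelled line and 13.1 times in the OE-labelled line. Median coding length was 434 bases for subunits, from 174 in NDUFB1 to 2181 in NDUFS1, and 981 bases for assembly factors.

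Of the NDUF genes kept apart, NDUFA4, long listed as a complex I subunit and now placed in cytochrome c oxidase, had 1148 footprint counts in the knockout-labelled line and 965 in the OE-labelled line (-0.03, -0.15 to 0.10) and 1367 knockout-labelled and 1124 OE-labelled RNA counts (-0.16, -0.28 to -0.05). Its paralogue NDUFA4L2, known as a target of hypoxia-inducible factor, had 50 footprint counts in the knockout-labelled line and 17 in the OE-labelled line (1.25, 0.46 to 2.17) and 26 knockout-labelled and 14 OE-labelled RNA counts, under the minimum in both assays.

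NRF1 and GABPA are transcription factors known to act on promoters of respiratory chain genes. NRF1 had 118 RNA counts in the knockout-labelled line and 53 in the OE-labelled line (0.70, 0.23 to 1.21), and 67 knockout-labelled and 65 OE-labelled footprint counts (-0.23, -0.75 to 0.28). GABPA had 366 RNA counts in the knockout-labelled line and 291 in the OE-labelled line (-0.11, -0.34 to 0.11), and 183 knockout-labelled and 265 OE-labelled footprint counts (-0.81, -1.09 to -0.53). GABPA lies on chromosome 21, where its 40 nearest genes had a median footprint log2 ratio of -0.48. Of the 11 listed regulators of mitochondrial biogenesis 10 were measured in mRNA, 1 at least 1.5-fold higher (NRF1) and 1 lower (TFB1M, -0.88), where 10.5% of all genes were higher and 10.5% lower. In footprints 1 of 9 was higher (TFAM, the mitochondrial DNA packaging factor, 0.66) and 1 lower (GABPA), where 15.0% of all genes were higher and 14.0% lower. These mRNA and footprint counts lie at or under the background. In translational efficiency 0 of 9 were higher and 2 lower (NRF1, -0.94, and GABPA, -0.69), where 13.4% of all genes were higher and 12.9% lower. Of the 9, 7 lay below 0, as did 50.4% of all genes. Whether these counts differ from the background was not tested.

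The promoters of the members were searched for the core letters of the NRF1 motif, GCGCATGC, and of the ETS motif bound by GABPA, CCGGAAGT, on both strands. RefSeq promoter windows of 300 bases (GRCh38.p14) were matched for 41 of the 48 subunits and assembly factors. The NRF1 letters were found in 8 of 52 member windows (15.4%), against 3.05% of all 35116 windows. The ETS letters were found in 3 of 52 (5.77%), against 4.14%. No window of a member held both. The stretches below are shown because they hold the NRF1 letters upstream of the start, between 166 bases (NDUFA6) and 46 bases (NDUFS6) before it. Each is a run of 60 bases, 5′ to 3′ on the gene's strand, with the NRF1 letters in capitals. In NDUFB4 the letters of both strands match and overlap.
NDUFS6: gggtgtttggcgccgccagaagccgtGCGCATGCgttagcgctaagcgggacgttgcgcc
NDUFA6: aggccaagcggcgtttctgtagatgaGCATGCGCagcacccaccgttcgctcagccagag
NDUFS7: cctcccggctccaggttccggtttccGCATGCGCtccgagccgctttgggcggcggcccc
NDUFA5: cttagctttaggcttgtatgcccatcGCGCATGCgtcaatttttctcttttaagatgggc
NDUFB4: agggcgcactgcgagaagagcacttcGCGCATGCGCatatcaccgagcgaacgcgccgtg
They lie at chr5:1801335-1801394 (plus strand), chr22:42090905-42090964 (minus strand), chr19:1383808-1383867 (plus strand), chr7:123557943-123558002 (minus strand) and chr3:120596151-120596210 (plus strand), in the order printed. The mRNA log2 ratios of these genes were -0.34, -0.11, 0.27, 0.11 and 0.56, so they lay on both sides of 0. The other 3 genes with the letters, NDUFAF4, NDUFA8 and NDUFAF5, have them next to the start, from 4 bases before it to 6 after it, with mRNA log2 ratios of 0.06, -0.11 and 0.29. A match of letters is a description and does not show that a factor is bound.

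The complex I subunits encoded in mitochondrial DNA had summed ratios close to those of the other genes of that DNA. They form the proton-pumping core of the membrane arm, and the mitochondrial ribosome translates them. In mRNA 6 of 7 had a log2 ratio below 0, from -0.68 for MT-ND2 (786 counts in the knockout-labelled line and 924 in the OE-labelled line) to -0.12 for MT-ND6, and MT-ND4L stood at 0.21 (658 knockout-labelled and 417 OE-labelled counts). MT-ND1 and MT-ND3 stood at -0.22 and -0.41. Footprint counts were low, between 4 for MT-ND3 and 150 for MT-ND4, and only MT-ND4 and MT-ND5 passed the minimum. MT-ND2 had 21 footprint counts in the knockout-labelled line and 30 in the OE-labelled line, the reverse of the other 6 genes. MT-ND4 had 150 footprint counts in the knockout-labelled line and 93 in the OE-labelled line (0.41, 0.03 to 0.80) with 4355 knockout-labelled and 4595 OE-labelled RNA counts (-0.52, -0.58 to -0.46). MT-ND5 had 115 knockout-labelled and 59 OE-labelled footprint counts (0.68, 0.22 to 1.16) with 1922 knockout-labelled and 1752 OE-labelled RNA counts (-0.31, -0.41 to -0.22). Summed over the 7 genes, footprints were 405 in the knockout-labelled line and 246 in the OE-labelled line (0.44, 0.21 to 0.68), and RNA counts 10667 (knockout-labelled) and 10157 (OE-labelled) (-0.37, -0.41 to -0.33). The other 6 protein-coding genes of mitochondrial DNA had 3147 knockout-labelled and 1906 OE-labelled footprint counts (0.45, 0.36 to 0.53), and 66899 knockout-labelled and 60923 OE-labelled RNA counts (-0.31, -0.33 to -0.29). Only MT-ND2 of the 7 passed 1.5-fold in mRNA, and their range of -0.68 to 0.21 lay largely within that of the nuclear subunits (-0.64 to 0.89).

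Assembly factors outside the naming rule gave no common direction. Of 13, 8 were measured in footprints, with a median of -0.07. Of these, 1 was at least 1.5-fold higher and 1 lower, where 15.0% of all measured genes were higher and 14.0% lower. TMEM126A, the paralogue of the MCIA member TMEM126B, had 150 footprint counts in the knockout-labelled line and 46 in the OE-labelled line (1.42, 0.94 to 1.94) and 120 knockout-labelled and 81 OE-labelled RNA counts (0.12, -0.30 to 0.55). It passed the footprint minimum only through the knockout-labelled library. ACAD9, the MCIA member related to acyl-CoA dehydrogenases, had 234 footprint counts in the knockout-labelled line and 134 in the OE-labelled line (0.53, 0.22 to 0.85) and 308 knockout-labelled and 160 OE-labelled RNA counts (0.50, 0.22 to 0.78). It lies on chromosome 3, where its 40 nearest genes had medians of 0.40 in mRNA and 0.36 in footprints. LYRM2 had 15 knockout-labelled and 31 OE-labelled footprint counts (-1.30, -2.32 to -0.39), and ATP5S, named DMAC2L in RefSeq, had 32 knockout-labelled and 62 OE-labelled ones (-1.22, -1.89 to -0.59), both under the minimum. TMEM261, named DMAC1 in RefSeq, was lower in footprints (-0.69) and in mRNA (-0.67). C17orf89, which RefSeq names NDUFAF8 and which stabilises NDUFAF5, had 26 footprint counts in the knockout-labelled line and 57 in the OE-labelled line (-1.39, -2.14 to -0.72) and 271 knockout-labelled and 162 OE-labelled RNA counts (0.30, 0.01 to 0.59), under the footprint minimum and opposite in direction to NDUFAF5.

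Complexes II to V, set beside complex I, were taken from a hand-made list of nuclear genes that mixes subunits with factors. Of 65 measured in footprints 7 were at least 1.5-fold higher and 5 lower, where 15.0% of all measured genes were higher and 14.0% lower. Of 72 measured in mRNA 1 was higher and 4 lower, where 10.5% of all measured genes were higher and 10.5% lower. These counts lie under the background. Split after the data were seen, the 24 measured assembly or expression factors had 5 higher in footprints and 1 lower, with a median of 0.05. The 5 were BCS1L (1.12), PET100 (0.94), COX10 (0.89), COA6 (0.78) and UQCC2 (0.60), which serve complexes III and IV. COA6, with 84 knockout-labelled and 40 OE-labelled footprint counts, passed the count minimum only through the knockout-labelled library. The 41 other measured genes had 2 higher and 4 lower, with a median of -0.02. Mitochondrial ribosomal proteins had 11 of 75 higher (14.7%) and 6 lower (8.0%) in footprints, with a median of 0.12, at or under the same background. Factors at least 1.5-fold higher in footprints thus occurred for complexes III and IV too. Their 5 of 24 is not far above the 15.0% over all genes, so no trait of assembly factors is read from it.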

How the data were processed

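The authors deposited raw counts, whole numbers for 19192 genes with 1 listed transcript each, as per the file headers. Per the labels' protocols, fragments of 18 to 34 nt (footprints) or 18 to 50 nt (RNA) were size-selected, then cDNA went through 15 cycles of PCR. The submitters' processing notes name HISAT2 2.1.0, Bowtie 1.1.2, cutadapt 1.10 and GRCh38, with no role. What counted the reads, over which region, with which strand setting and with or without collapsing PCR copies, the sources used here do not give, so intervals may be too narrow. Per the labels, the OE-labelled RNA library has SW840 in its cell line field and SW480 in its source field; it was taken as SW480.

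TMM factors (edgeR 4.0.16 in R 4.3.3) scaled the libraries of an assay to each other, and 0.5 was added to each count before log2 ratios were taken. Intervals are exact conditional binomial (Clopper-Pearson) for ratios and Wald for translational efficiency. No test was run and no p-value computed. Coordinates and coding lengths are those of GENCODE release 29 (GRCh38), which holds 19176 of the listed transcripts. The ratio and interval steps were checked on simulated counts. Alternative scalings used upper quartiles, DESeq2 (1.42.0) size factors, or total counts, the last also with mitochondrially encoded genes left out. Further alternatives were other count minimums, 5 added to each count, a threshold of 2-fold and other memberships. Members, lists and thresholds were chosen with earlier results of these data known. Counts are printed for members at least 1.5-fold different in any ratio with an interval that leaves out 0, and for the most abundant members of each module. Other genes were named after their values were seen. A subunit and a marker are not reported here by name, and totals over their lists include them. Figures were drawn with matplotlib 3.10.9 under Python 3.11.15, and values computed with scipy 1.17.1, pandas 2.3.3 and numpy 2.4.6.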

Additional observations from a re-analysis of the deposited data

How the results depend on the processing

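No single-gene ratio and no difference of medians past 1.5-fold changed its sign under the alternatives tried for it. The other scalings could not have reversed a ratio that large, because the largest shift of an all-gene median, given below, was small. Numbers of genes higher and lower were not judged for direction. No paired analysis was possible because each line has 1 library per assay. Scaling by total counts moved the median mRNA log2 ratio of all genes from 0.01 to 0.13; subunits past 1.5-fold in mRNA became 2 higher and 0 lower, and assembly factors 1 higher, with mitochondrially encoded genes in or out of the totals. Upper-quartile scaling left 3 subunits lower in efficiency. With a mean count of at least 10, and with no minimum, 5 assembly factors were higher and 2 lower in efficiency. With at least 200 counts, 0 subunits were higher and 0 assembly factors lower in mRNA, 3 subunits were lower in efficiency, and no assembly factor was left in footprints. At 2-fold, 0 subunits were higher and 0 lower in mRNA and in efficiency, 0 higher and 1 lower in footprints; of assembly factors, 0 were lower in any ratio and 1 (FOXRED1) higher in footprints and in efficiency.

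With assembly factors outside the naming rule added, 2 were lower in mRNA and 2 in footprints, the footprint median was 0.067, and the difference of medians -0.18. Without FOXRED1, 0 were lower in mRNA. Settings chosen after the data were seen were these. After subtraction of the median of the 40 nearest genes, 2 assembly factors were higher in footprints. With assembly factors outside the naming rule added and a mean count of at least 10, 2 were lower in mRNA, 9 higher and 5 lower in footprints, and 8 higher and 5 lower in efficiency, at the same footprint median of 0.067 and difference of medians of -0.18. Without members sharing exonic bases with another listed gene, 0 subunits were higher in mRNA, 1 was lower in footprints and 0 in efficiency, while 2 assembly factors were higher in footprints and 0 lower in footprints or in efficiency. For single genes, 841 values under alternatives moved by less than the mean reach of the counting interval to either side, and 20 by more. Of these, 17 came with subtraction of the median of the 40 nearest genes, 2 with total counts and 1 with total counts without mitochondrially encoded genes. Depth limits the assembly factors most: 3 of 11 fell under the footprint minimum.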

Other observations

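Some complex I genes overlap an unrelated gene, and the partners' counts differed from theirs. NDUFA3 shares 157 exonic bases with TFPT, a chromatin remodeller subunit gene on the opposite strand. TFPT had 221 footprint counts in the knockout-labelled line and 81 in the OE-labelled line (log2 ratio 1.17) and 95 knockout-labelled and 118 OE-labelled RNA counts (-0.76), whereas NDUFA3 stood at -1.11 in footprints and -0.48 in mRNA. NDUFA1 shares 341 exonic bases with RNF113A on the opposite strand. RNF113A had 366 knockout-labelled and 177 OE-labelled footprint counts (0.77), whereas NDUFA1 stood at -0.55. KCTD14, which shares exons with the NDUFC2-KCTD14 read-through gene, had 89 knockout-labelled and 34 OE-labelled footprint counts, against a log2 ratio of -0.41 for NDUFC2. Whether the counting used strand is not given in the sources used here.

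NDUFV3 lies on chromosome 21, where its 40 nearest measured genes had medians of -0.54 in mRNA and -0.41 in footprints. It stood at 0.04 (212 RNA counts in the knockout-labelled line and 151 in the OE-labelled line) and -0.16 (100 knockout-labelled and 92 OE-labelled footprint counts), above its neighbours in both assays.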
